A study of Mus musculus with 10 samples.

Results

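The genes that make, break down, export and sense sphingosine-1-phosphate (S1P) were examined in the lumbar spinal cord of a mouse model of amyotrophic lateral sclerosis that carries a mutant Sod1 transgene. They are the kinases Sphk1 and Sphk2, the phosphatases Sgpp1 and Sgpp2, the lyase Sgpl1, the exporter Spns2 and the receptors S1pr1, S1pr2, S1pr3 and S1pr5, chosen by name as 10 of the 32506 genes counted. Females of the FVB/N strain were compared at 95 days of age, when the transgenic mice are symptomatic. The SOD1G86R group (n = 5) was hemizygous for a transgene that overexpresses the mutant superoxide dismutase and came from transgenic males bred with non-transgenic FVB/N females. Wild type controls (WT, n = 5) were non-transgenic mice matched for age and litter, and mice of both groups were perfused with PBS before dissection. RNA was sequenced with 1 library per mouse. The promoter that drives the transgene is not given in the sources used here.

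S1P is a lipid signal made from the membrane lipid sphingosine. Sphingosine kinases add its phosphate, the phosphatases Sgpp1 and Sgpp2 remove it again, and the lyase Sgpl1 cleaves the molecule irreversibly, which is the only exit from the sphingolipid pathway. Spns2 carries S1P out of endothelial and other cells, where it acts on receptors coupled to G proteins. In the nervous system S1pr1 is known from astrocytes, neurons and endothelial cells and S1pr5 from oligodendrocytes, while S1pr2 and S1pr3 couple to more kinds of G protein than S1pr1. Fingolimod, a drug for multiple sclerosis, is phosphorylated by Sphk2 and then acts on all S1P receptors but S1pr2.

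Libraries held 29333590 to 46003999 counts in WT and 31494723 to 37080445 in SOD1G86R mice, and 16974 genes with enough counts were tested. Sod1 was 127 to 210 CPM (counts relative to the library total, scaled by TMM) in WT and 3918 to 6415 CPM in SOD1G86R mice, as labelled. SOD1G86R replicate 4 stood apart from its group. The 6 markers of dorsal root ganglion neurons summed to 52.8 CPM in this library and to 2.75 to 4.47 CPM in all others, although the tissue is labelled spinal cord. Its 7 microglial markers summed to 362 CPM, near the WT range of 272 to 354 CPM, against 572 to 774 CPM in the other 4 SOD1G86R mice. Results that rest on this mouse are given with and without it. Markers of neurons, oligodendrocytes, astrocytes and microglia were present in every library.

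Among the S1P genes, the lyase Sgpl1 and the receptor S1pr3 were higher in all 5 SOD1G86R mice than in any WT mouse. RefSeq promoters were matched by symbol for 9 of the 10 genes, all but S1pr1. Those of Sgpl1 and S1pr3 are shown because these are the members whose groups did not overlap. Each runs 5′ to 3′ on the strand of the gene over the 250 bases before the start given by RefSeq (GRCm38.p6), and capitals mark matches to 7 short motifs searched on both strands.
Sgpl1, chr10:61147685-61147934, minus strand: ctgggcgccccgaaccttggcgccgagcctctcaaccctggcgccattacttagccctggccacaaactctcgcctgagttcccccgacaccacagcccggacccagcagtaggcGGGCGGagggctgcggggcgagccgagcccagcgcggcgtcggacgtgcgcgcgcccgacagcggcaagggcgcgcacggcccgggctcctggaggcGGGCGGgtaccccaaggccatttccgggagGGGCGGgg
S1pr3, chr13:51408368-51408617, plus strand: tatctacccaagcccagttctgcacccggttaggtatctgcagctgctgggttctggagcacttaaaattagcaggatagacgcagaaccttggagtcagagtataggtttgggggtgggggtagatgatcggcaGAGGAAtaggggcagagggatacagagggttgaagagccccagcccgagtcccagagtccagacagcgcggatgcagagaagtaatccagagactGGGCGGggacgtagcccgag
The Sgpl1 window had a GC content of 74.8% and 31 CpG sites, against medians of 52.4% and 6 over 32851 RefSeq promoters. It held 3 GC boxes (GGGCGG), at -135, -38 and -8 from the start. Its last bases lie inside the first exon of the longer GENCODE model of Sgpl1. The S1pr3 window had a GC content of 56.4% and 9 CpG sites, with 1 GC box at -20 and 1 PU.1 element (GAGGAA) at -115. The GC box was present in 32.7% of all promoters and the PU.1 element in 23.3%. The CCAAT box (CCAAT), the TATA box (TATAAA), the E-box (CACGTG), an interferon element and the AP-1 element (TGANTCA) had no match in either window. They occur in 33.8, 12.4, 6.02, 2.98 and 6.75% of promoters, in this order. A match is a description of the letters and not a binding site.

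The study also designed a pair of qPCR primers for Sgpl1, which are shown because they mark the stretch of the transcript that was chosen for a second measurement.
Forward primer: atgtggatgcttgtctgggg
Reverse primer: gtcacacctttcacccggaa
Both lie in the coding part of exon 11 of Sgpl1, at chr10:61104565-61104584 and chr10:61104488-61104507 in GRCm38, and span a product of 97 bases. Both sequences were found together in 4 transcripts of Sgpl1 and in those of 0 other genes. The qPCR values were not analysed here.

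Sgpl1 (ENSMUSG00000020097, on chromosome 10 from 61098642 to 61147703) was measured at 44.7, 44.0, 42.0, 45.8 and 43.4 CPM in WT replicates 1 to 5. In SOD1G86R replicates 1 to 5 it was at 71.4, 60.4, 64.8, 46.7 and 77.5 CPM. WT mice lay close together, while the SOD1G86R mice spread widely and replicate 4 was only slightly above the highest WT mouse. Means were 44.0 ± 1.43 CPM for WT and 64.2 ± 11.7 CPM for SOD1G86R mice (SD, n = 5 each), a ratio of 1.46. This is a log2 fold change of 0.55 (standard error 0.11, 95% interval 0.31 to 0.78), with an adjusted p of 0.0129 by edgeR's quasi-likelihood test over all tested genes. By edgeR it thus missed 0.01, the limit that the study set for DESeq2. By DESeq2, the tool of the study, the adjusted p was 5.44e-05, and by limma voom 0.0277. Without SOD1G86R replicate 4 the log2 fold change was 0.64 and the edgeR adjusted p 4.51e-05. Leaving out any other mouse gave adjusted p values that did not pass, up to 0.0451. The two-sided exact permutation test gave p = 0.00794, the smallest that 252 assignments allow.

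S1pr3 (ENSMUSG00000067586, on chromosome 13 from 51408639 to 51422797) was measured at 5.05, 5.08, 5.89, 7.35 and 7.37 CPM in WT replicates 1 to 5. In SOD1G86R replicates 1 to 5 it was at 19.2, 11.0, 10.7, 9.05 and 9.33 CPM. Replicate 1 was far above the other SOD1G86R mice, and even the lowest of these was above every WT mouse. Means were 6.15 ± 1.16 CPM for WT and 11.9 ± 4.20 CPM for SOD1G86R mice (SD, n = 5 each), a ratio of 1.93. The log2 fold change of 0.94 (standard error 0.21, 95% interval 0.49 to 1.40) was the largest of the 10 genes, with an edgeR adjusted p of 0.0254. The adjusted p was 0.000155 by DESeq2 and 0.0468 by limma voom. Without SOD1G86R replicate 4 the log2 fold change was 1.02, with an edgeR adjusted p of 0.00902. Without SOD1G86R replicate 1 it was 0.70, with an edgeR adjusted p of 0.0207, and over all fits that left out 1 mouse the adjusted p reached 0.0732. The two-sided exact permutation p was 0.00794, again the smallest possible.

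**Figure D1:**
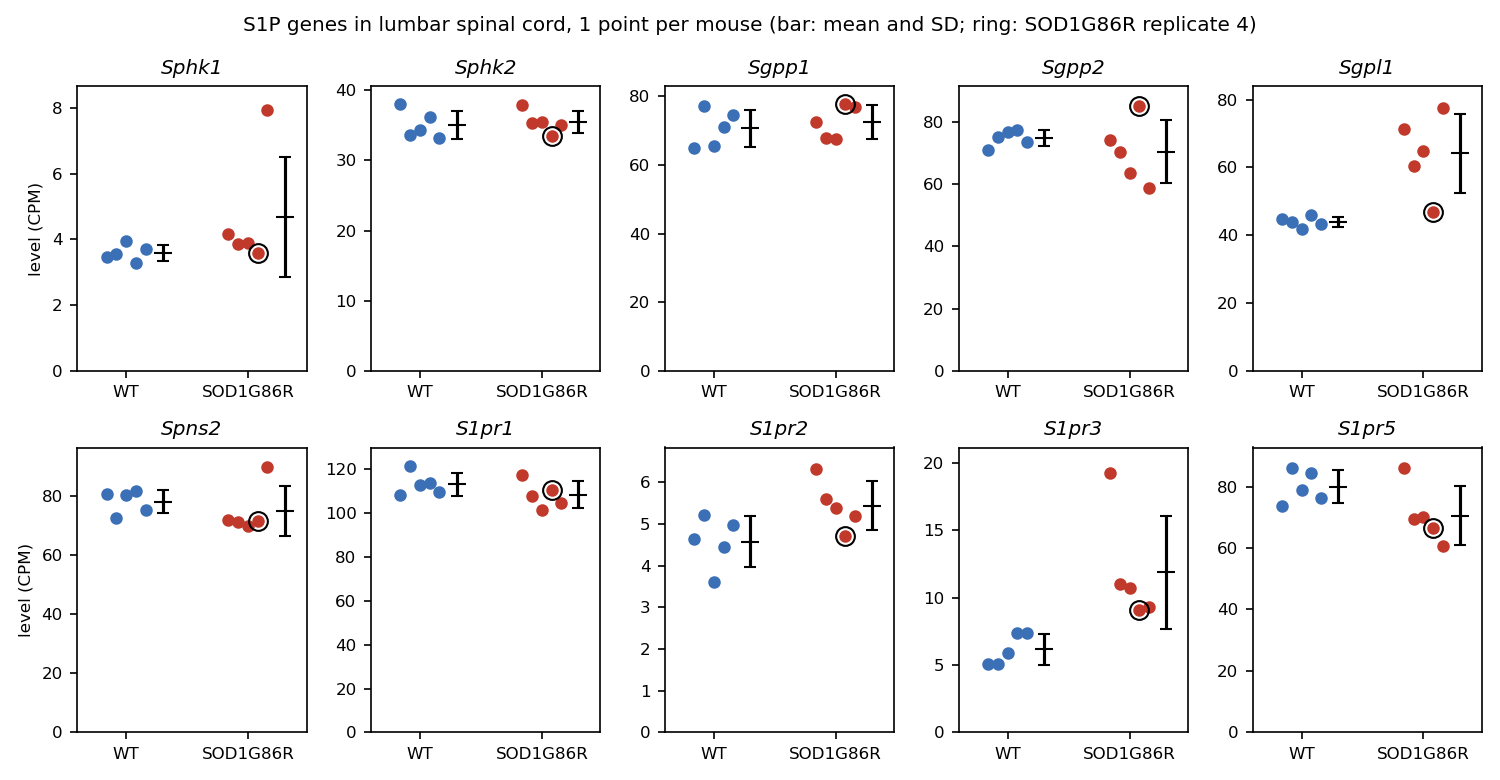
Level of each S1P gene (CPM, TMM-scaled, linear axis from 0) in every WT and SOD1G86R mouse, with 1 point per mouse, bars for the mean and SD of 5 mice and a ring around SOD1G86R replicate 4. The groups are separate for Sgpl1 (42.0 to 45.8 against 46.7 to 77.5 CPM) and S1pr3 (5.05 to 7.37 against 9.05 to 19.2 CPM) and overlap for the other 8 genes.

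At an edgeR adjusted p under 0.01, 0 of the 10 S1P genes were called higher and 0 lower, where 0.866% of all tested genes were higher and 0.253% lower. The study set its limit of 0.01 for DESeq2. At an adjusted p under 0.05, 2 were higher (Sgpl1 and S1pr3) and 0 lower, against 3.85 and 0.748% of tested genes. The same 2 genes, and 0 lower, passed 0.01 in DESeq2, which called 3.82% of its genes higher and 0.559% lower. They also passed in edgeR without SOD1G86R replicate 4, which called 4.55 and 0.5% of its genes. Limma voom called 0 of the 10, and 69 of all 16974 tested genes in either direction. At an unadjusted p under 0.05 in edgeR, 2 members were higher and 0 lower, against 10.8 and 6.33% of tested genes. All SOD1G86R mice were above all WT mice for 2 of 10 members and 3.09% of tested genes, and below them for 0 members and 1.84% of tested genes. The median log2 fold change was 0.03 over the 10 members and -0.01 over all tested genes. As the members were named with results of these mice known, these shares are a description.

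**Figure D2:**
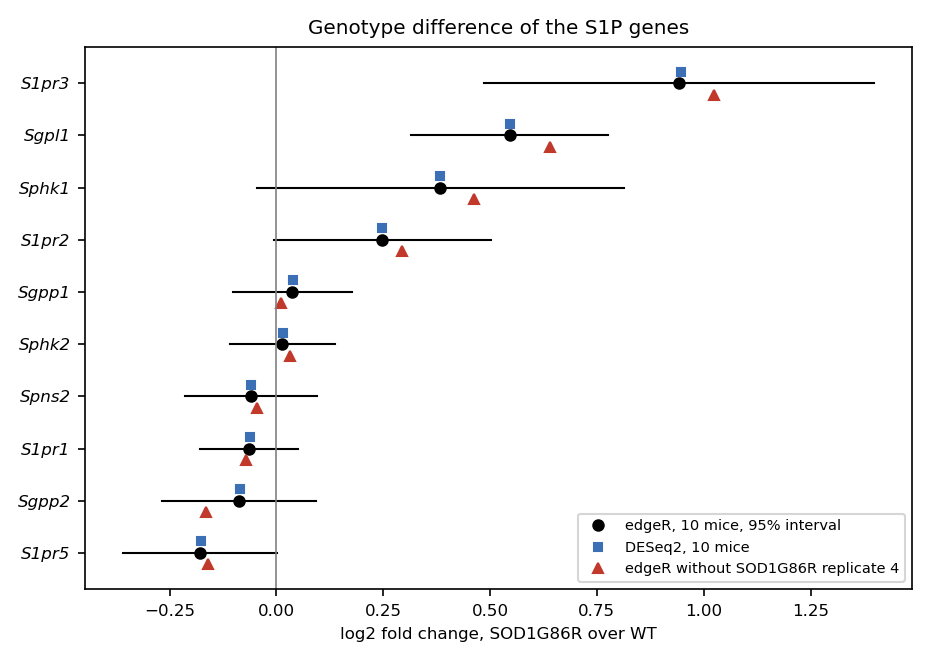
Log2 fold change of each S1P gene, SOD1G86R over WT, from edgeR with its 95% interval (black), DESeq2 (blue squares) and edgeR without SOD1G86R replicate 4 (red triangles). The intervals of S1pr3 (0.49 to 1.40) and Sgpl1 (0.31 to 0.78) lie above 0, and those of the other 8 genes include it.

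The spinal cord is a mixture of cells, and a change in the number of cells of a type cannot be told apart from a change in RNA per cell. The 7 microglial markers (Cx3cr1, P2ry12, Tmem119, Csf1r, Aif1, Itgam and C1qa) were therefore set beside Sgpl1 and S1pr3. They summed to 272 to 354 CPM in WT mice and to 362 to 774 CPM in SOD1G86R mice, with 0 markers at 0. Of these 7 genes 1 was called higher by edgeR at 0.01 and 6 at 0.05, with a median log2 fold change of 0.90, against 0.866 and 3.85% of all tested genes and a median of -0.01. SOD1G86R replicate 4 had the lowest microglial sum and the lowest Sgpl1 of its group. The mouse with the highest Sgpl1 was SOD1G86R replicate 5, at a microglial sum of 715 CPM, while replicate 1 had the highest sum, at 774 CPM, and also the highest S1pr3. The 8 astrocyte markers summed to 7241 to 8626 CPM in WT mice, 8011 CPM in SOD1G86R replicate 4 and 10049 to 12254 CPM in the other SOD1G86R mice. Of these 8 genes 0 were called higher by edgeR at 0.01 and 2 at 0.05. Their median log2 fold change was 0.20, with a range of -0.02 to 1.76 and 6 of 8 positive. Endothelial markers (199 to 333 against 289 to 340 CPM) and mural cell markers (126 to 241 against 191 to 239 CPM) overlapped between the groups in their sums. Of single markers, 0 of 8 endothelial and 1 of 6 mural genes were called higher at 0.01, with medians of 0.23 and 0.33 on the log2 scale and a positive fold change in each gene. The part of these cell types in the levels of Sgpl1 and S1pr3 was not tested.

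**Figure D3:**
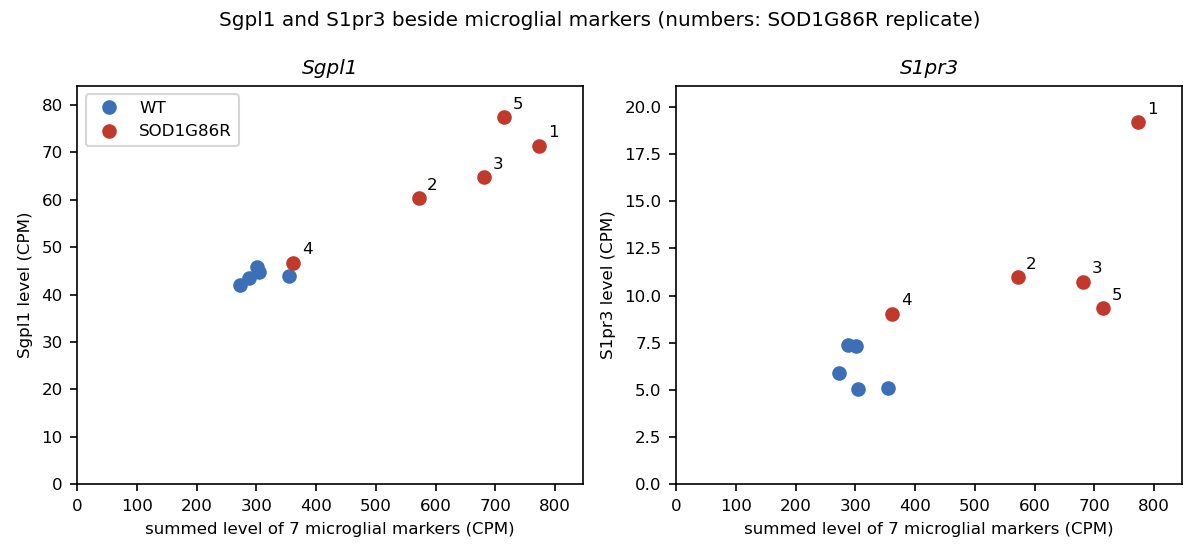
Levels of Sgpl1 (left) and S1pr3 (right) in CPM against the summed level of 7 microglial markers in CPM, with 1 point per mouse and the replicate number beside each SOD1G86R mouse. SOD1G86R replicate 4 is near the WT mice on the marker axis (362 against 272 to 354 CPM) and in Sgpl1 (46.7 against at most 45.8 CPM).

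The sphingosine kinases, which make S1P, showed no difference that passed the test. Sphk1, the kinase found mainly in the cytosol (ENSMUSG00000061878, on chromosome 11 from 116530925 to 116536674), was at 3.48, 3.56, 3.95, 3.29 and 3.71 CPM in WT mice. In SOD1G86R mice it was at 4.16, 3.85, 3.89, 3.60 and 7.92 CPM. Only replicate 5 was far from WT, and replicates 2, 3 and 4 were within the WT range. Its log2 fold change was 0.38 (standard error 0.20, 95% interval -0.05 to 0.81, edgeR adjusted p = 0.355), and 0.11 without SOD1G86R replicate 5 (edgeR adjusted p = 0.726). The exact permutation p was 0.0714, and 0.0476 without SOD1G86R replicate 4.

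Sphk2, the kinase found in the nucleus and mitochondria (ENSMUSG00000057342, on chromosome 7 from 45709467 to 45718002), was at 38.1, 33.7, 34.4, 36.2 and 33.2 CPM in WT and at 37.8, 35.3, 35.5, 33.5 and 35.0 CPM in SOD1G86R mice. Every SOD1G86R mouse lay within the WT range. SOD1G86R and WT mice differed by a log2 fold change of 0.01, with a 95% interval of -0.11 to 0.14 (edgeR adjusted p = 0.929). Exons of Sphk2 share 539 bases with Dbp and 373 bases with Rpl18, genes of the opposite strand, which are 13.0 and 8.97% of its exon length. Whether reads were counted by strand is not given in the sources used here, so it is not known how reads in these stretches were counted. Sgpp2 shares 248 exon bases with Farsb, Spns2 131 with Mybbp1a and Sphk1 192 with Gm29292, all on the opposite strand. S1pr3 shares 45 exon bases with Gm32834 and S1pr5 51 with Gm48303, also on the opposite strand. Sphk1 took 8.22 ± 0.82% (SD, n = 5) of the summed kinase level in WT and 10.2 ± 3.49% (SD, n = 5) in SOD1G86R mice, when levels were divided by exon length. SOD1G86R replicate 5 was at 16.5%, and the other SOD1G86R mice were at 8.55 to 8.75%, within the WT range of 7.33 to 9.09%.

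The phosphatases return S1P to sphingosine in the endoplasmic reticulum. Sgpp1 (ENSMUSG00000021054, on chromosome 12 from 75714249 to 75735729) was at 65.0, 77.2, 65.5, 71.0 and 74.6 CPM in WT and at 72.5, 67.8, 67.6, 77.7 and 77.0 CPM in SOD1G86R mice. Its groups covered nearly the same range, with a log2 fold change of 0.04 (95% interval -0.10 to 0.18, edgeR adjusted p = 0.814). Sgpp2 (ENSMUSG00000032908, on chromosome 1 from 78310345 to 78420289) was at 71.0, 74.9, 76.6, 77.4 and 73.6 CPM in WT and at 74.2, 70.2, 63.5, 84.9 and 58.8 CPM in SOD1G86R mice. SOD1G86R replicates 2, 3 and 5 were below every WT mouse, whereas replicate 4 was above every WT mouse. The log2 fold change was -0.09 (95% interval -0.27 to 0.09, edgeR adjusted p = 0.645), -0.16 without SOD1G86R replicate 4 (edgeR adjusted p = 0.190) and -0.03 without SOD1G86R replicate 5 (edgeR adjusted p = 0.907). The exact permutation p of Sgpp2 was 0.325 with all mice and 0.0476 without SOD1G86R replicate 4. Sgpp2 made up 59.9 ± 1.87% (SD, n = 5) of the length-scaled phosphatase level in WT and 57.6 ± 3.47% (SD, n = 5) in SOD1G86R mice, and the groups overlapped.

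Spns2, which exports S1P from cells (ENSMUSG00000040447, on chromosome 11 from 72451638 to 72489904), was at 80.5, 72.6, 80.4, 81.5 and 75.1 CPM in WT and at 71.8, 71.3, 69.7, 71.7 and 89.7 CPM in SOD1G86R mice. Replicates 1 to 4 were all below the lowest WT mouse and replicate 5 above the highest. Its log2 fold change was -0.06 (95% interval -0.21 to 0.10, edgeR adjusted p = 0.729), and -0.14 without SOD1G86R replicate 5 (edgeR adjusted p = 0.219). SOD1G86R replicate 5 was the highest of its group in Sphk1, Sgpl1 and Spns2 and the lowest in Sgpp2 and S1pr5.

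S1pr1, the receptor that couples to Gi and holds lymphocytes in circulation (ENSMUSG00000045092, on chromosome 3 from 115710433 to 115715072), had the highest level per exon length of the S1P genes. It was at 108, 122, 113, 114 and 110 CPM in WT and at 117, 108, 101, 110 and 104 CPM in SOD1G86R mice. The groups overlapped, with a log2 fold change of -0.06 (95% interval -0.18 to 0.05, edgeR adjusted p = 0.589).

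S1pr5 (ENSMUSG00000045087, on chromosome 9 from 21242912 to 21248443), the receptor of oligodendrocytes and natural killer cells, was at 73.6, 86.2, 78.8, 84.5 and 76.2 CPM in WT mice. In SOD1G86R mice it was at 86.2, 69.4, 70.0, 66.6 and 60.7 CPM, so that 4 of 5 were below every WT mouse and replicate 1 was at the upper end of WT. With all mice the log2 fold change was -0.18 (standard error 0.08, 95% interval -0.36 to 0.00, edgeR adjusted p = 0.298), and the exact permutation p was 0.0873. It was -0.26 without SOD1G86R replicate 1 (edgeR adjusted p = 0.0624) and -0.13 without SOD1G86R replicate 5 (edgeR adjusted p = 0.481). The 8 oligodendrocyte markers summed to 37227 to 42218 CPM in WT and 33410 to 37997 CPM in SOD1G86R mice. By edgeR at 0.01, 0 of 8 were called in either direction, where 0.866% of all tested genes were higher and 0.253% lower. Their median log2 fold change was -0.11, with 0 of 8 positive, against a median of -0.01 over all tested genes. The part of oligodendrocytes in the level of S1pr5 was not tested.

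S1pr2 (ENSMUSG00000043895, on chromosome 9 from 20962361 to 20976781), which couples to several kinds of G protein, had the lowest level per exon length. It was at 4.64, 5.21, 3.61, 4.43 and 4.97 CPM in WT and at 6.31, 5.59, 5.38, 4.70 and 5.18 CPM in SOD1G86R mice. SOD1G86R replicates 1, 2 and 3 were above every WT mouse and the other 2 within the WT range. The log2 fold change was 0.25 (standard error 0.12, 95% interval -0.01 to 0.50, edgeR adjusted p = 0.303), and the exact permutation p was 0.0476, unadjusted for the 10 genes tested. By that permutation test 3 members were higher at p under 0.05 (Sgpl1, S1pr3 and S1pr2) and 0 lower, against 9.54 and 6.69% of tested genes. Without SOD1G86R replicate 4 they were 4 higher, with Sphk1, and 1 lower, Sgpp2, against 11.1 and 7.61% of tested genes.

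To compare levels between genes, CPM was divided by the length of the merged exons in kilobases. On this scale the WT order was S1pr1 (37.2 ± 1.71 CPM per kb, SD, n = 5), S1pr5 (31.9 ± 2.15), Spns2 (19.1 ± 0.97), Sgpp2 (18.7 ± 0.64), Sgpp1 (12.5 ± 0.96), Sphk2 (8.44 ± 0.48), Sgpl1 (7.16 ± 0.23), S1pr3 (1.38 ± 0.26), Sphk1 (0.753 ± 0.05) and S1pr2 (0.574 ± 0.08). The WT mice overlapped between Spns2 and Sgpp2 alone among neighbours in this order. In SOD1G86R mice Sgpl1, at 10.4 ± 1.91 CPM per kb (SD, n = 5), came before Sphk2, at 8.52 ± 0.37 CPM per kb (SD, n = 5), and the rest of the order was as in WT.

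Within the summed length-scaled level of the 4 receptor genes, S1pr3 took 1.94 ± 0.38% (SD, n = 5) in WT and 3.89 ± 0.94% (SD, n = 5) in SOD1G86R mice. The shares ranged from 1.50 to 2.40% and from 3.09 to 5.51%, without overlap. S1pr5 took 44.9 ± 0.78% (SD, n = 5) in WT and 42.0 ± 1.91% (SD, n = 5) in SOD1G86R mice, where the highest SOD1G86R share of 44.15% was just under the lowest WT share of 44.17%. S1pr1, at 52.3 ± 0.88 and 53.1 ± 2.71% (SD, n = 5), and S1pr2, at 0.808 ± 0.11 and 1.02 ± 0.07% (SD, n = 5), overlapped between the groups. S1pr1 and S1pr5 thus made up most of the receptor RNA in both genotypes. Shares were not tested, since those of a mouse depend on each other.

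**Figure D4:**
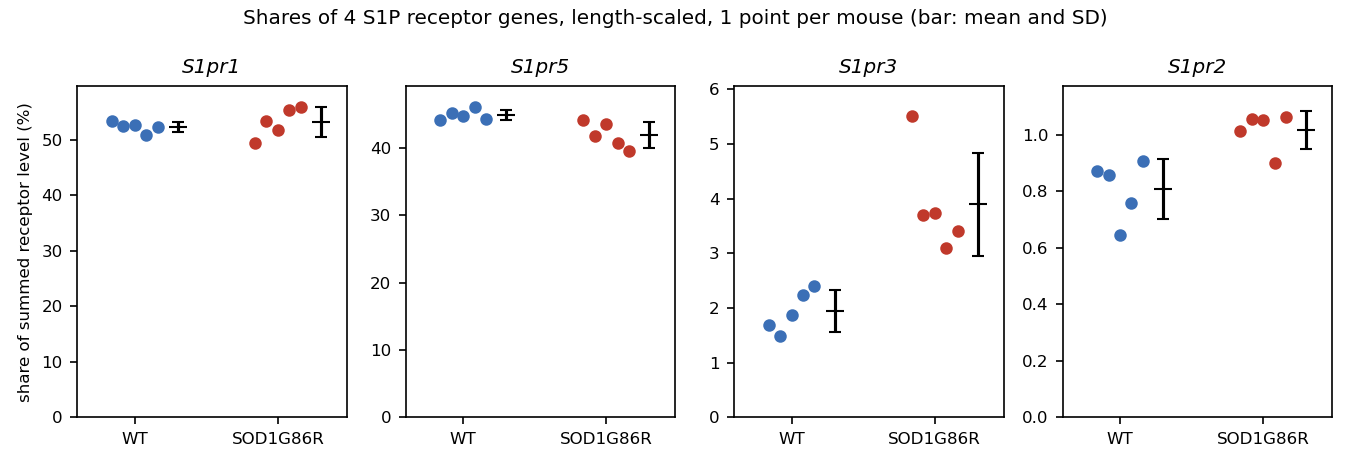
Share of each receptor gene in the summed level of 4 S1P receptor genes (%, levels divided by exon length, linear axes from 0 that differ between panels), with 1 point per mouse and bars for the mean and SD of 5 mice. S1pr3 has separate groups (1.50 to 2.40 against 3.09 to 5.51%), and S1pr1 has the largest share in every mouse.

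Of 65 other genes of the pathway 62 could be tested, and 1 was called higher and 0 lower by edgeR at 0.01, against 0.866 and 0.253% of all tested genes. This was Pik3cg, a phosphoinositide kinase of immune cells that G protein subunits activate, whose mean rose from 5.92 ± 1.20 CPM in WT to 10.5 ± 1.76 CPM in SOD1G86R mice (SD, n = 5 each). On the log2 scale the increase was 0.82 with a standard error of 0.14 (edgeR adjusted p = 0.00805), although SOD1G86R replicate 4, at 7.88 CPM, was below the highest WT mouse, at 8.04 CPM. At an adjusted p under 0.05, 8 were higher and 0 lower, where 3.85 and 0.748% of all tested genes were, and DESeq2 called 7 higher at 0.01, where it called 3.82% of its genes higher. The median log2 fold change over the 62 genes was 0.10, against -0.01 over all tested genes. The count of 1 became 6 without SOD1G86R replicate 4, a fit that called 4.55% of all its genes higher, and 0 without WT replicate 1, 3, 4 or 5 or SOD1G86R replicate 1, 2 or 3.

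Among genes that supply sphingosine and ceramide, 0 of 20 passed the test at 0.01, where 0.866% of all tested genes were higher and 0.253% lower. The smallest p values were those of the acid ceramidase Asah1, which frees sphingosine in lysosomes (log2 fold change 0.21, edgeR adjusted p = 0.0533), the alkaline ceramidase Acer3 (0.26, edgeR adjusted p = 0.0881) and the ceramide kinase Cerk (0.13, edgeR adjusted p = 0.112). Asah1 was at 63.0 to 69.9 CPM in WT and 71.9 to 83.3 CPM in SOD1G86R mice. In this list the SOD1G86R mice were all above WT for Asah1, Acer3, Cerk and the ceramide synthase Cers6 and all below WT for the ceramide synthase Cers2, against 3.09 and 1.84% of all tested genes. Against the same 0.866 and 0.253% of all tested genes, 0 of 11 genes of breakdown and transport passed. They were led by Abca1, a lipid exporter of the ABC family (0.67, edgeR adjusted p = 0.0131), the lipid phosphatase Plpp2 (-0.23, edgeR adjusted p = 0.159) and the exporter Abcg2 (0.23, edgeR adjusted p = 0.266). Abca1 was at 32.5 to 38.2 CPM in WT and 48.6 to 82.1 CPM in SOD1G86R mice, and passed without SOD1G86R replicate 4 (edgeR adjusted p = 0.00341).

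Among 8 related receptors 0 passed the test, where 0.866% of all tested genes were higher and 0.253% lower. The smallest p values were those of Gpr183, an oxysterol receptor that guides immune cells (1.09, edgeR adjusted p = 0.0149), and of the lysophosphatidic acid receptors Lpar5 (1.09, edgeR adjusted p = 0.0261) and Lpar6 (0.46, edgeR adjusted p = 0.0608). Gpr183 passed without SOD1G86R replicate 4 (edgeR adjusted p = 0.000427). S1pr4, the S1P receptor of lymphoid cells that is not among the 10 genes, was at 0.806 to 1.09 CPM in WT and 0.915 to 1.38 CPM in SOD1G86R mice (0.32, edgeR adjusted p = 0.346). Of 23 genes that couple the receptors to the cell or respond to them, 1 passed, Pik3cg, against the same shares. It was followed by the phospholipase Plcb2 (0.67, edgeR adjusted p = 0.0109) and the adenylyl cyclase Adcy7 (0.48, edgeR adjusted p = 0.0185). Ccn1, a gene of a matrix protein, named after its values were seen, had the largest fold change of the pathway list (2.14, edgeR adjusted p = 0.0303). It was at 4.22 CPM in SOD1G86R replicate 4, 19.5 to 33.9 CPM in the other SOD1G86R mice and 3.78 to 4.95 CPM in WT, and passed without replicate 4 (edgeR adjusted p = 7.95e-07). By limma voom its adjusted p was 0.165.

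S1pr1 lies on chromosome 3, where some genes were lower in SOD1G86R mice, so its neighbours were examined. Of 32 other tested genes within 5 Mb, 2 were called lower and 0 higher by edgeR at 0.01, where 0.253% of all tested genes were lower. The nearest was Dpyd, an enzyme of pyrimidine breakdown, whose gene starts at 118562129, 2.85 Mb from the start of S1pr1 (log2 fold change -0.71, standard error 0.09, edgeR adjusted p = 0.00163). Ptbp2, a splicing factor of neurons, lay 4 Mb away (-0.64, standard error 0.07, edgeR adjusted p = 0.000388). Between S1pr1 and Dpyd lay 24 tested genes with a median of 0.01 and a range of -1.27 to 0.52, of which 0 passed. The 4 of them nearest to Dpyd had log2 fold changes of -0.62 (Gm26871), -0.91 (Gm37773), -1.27 (Gm37928) and -0.99 (Gm32444), with an edgeR adjusted p of 0.0775 for Gm37928 and higher ones for the others. Within 2 Mb, 0 of 21 genes were called in either direction.

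**Figure D5:**
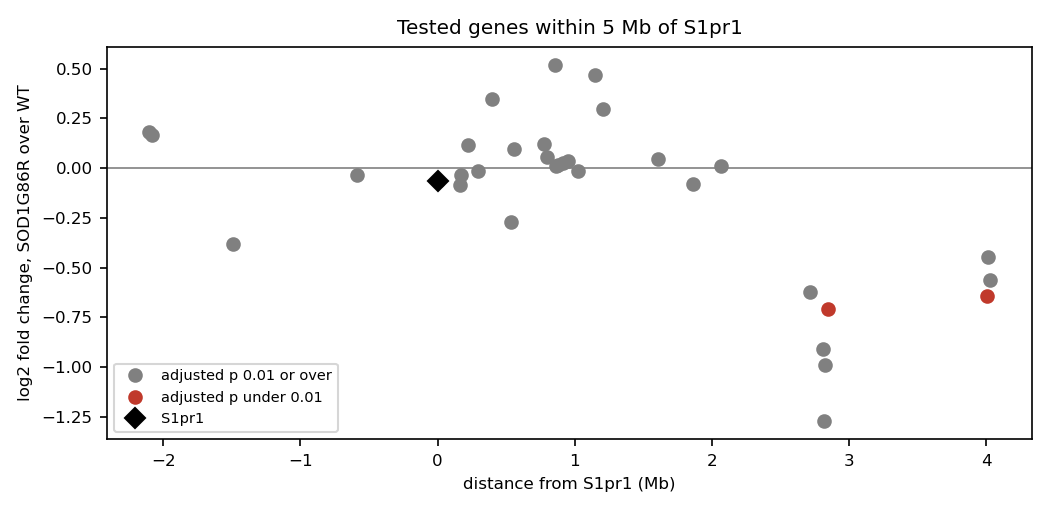
Log2 fold change (SOD1G86R over WT) of tested genes within 5 Mb of S1pr1 on chromosome 3 by distance in Mb, with S1pr1 as a black diamond and genes past an edgeR adjusted p of 0.01 in red. The 2 genes past it, Dpyd at -0.71 and Ptbp2 at -0.64, are more than 2 Mb away, and S1pr1 is at -0.06.

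Genes whose levels followed those of a member from mouse to mouse were sought for Sgpl1, S1pr3, Sphk1 and Sgpp2 by Pearson's r of log2 CPM over 10 mice after each genotype's mean was subtracted. These correlations are descriptions, picked as the highest of many, and the genes compared were measured in the same 10 libraries. The closest to Sgpl1 were Cd109, a protein anchored at the cell surface (r = 0.983, and 0.943 without SOD1G86R replicate 4), Rasl11a, a small GTPase (0.980 and 0.935), and Ehd4, which acts in endosomes (0.976 and 0.915). Cd109 was at 5.71 CPM in WT and 20.7 CPM in SOD1G86R mice on average. The closest to S1pr3 were Zfp623 (0.939 and 0.932), the neutral amino acid transporter Slc1a4 (0.931 and 0.927) and Bfar (0.925 and 0.921). The closest to Sphk1 were Myo1h (0.986 and 0.987), Acr (0.977 and 0.989) and Zfand4 (0.973 and 0.974). Acr averaged only 0.58 CPM in WT and 0.54 CPM in SOD1G86R mice, and Myo1h 1.57 and 1.13 CPM. Both values of r for Sphk1 keep SOD1G86R replicate 5, which was far above its group in Sphk1. Those for S1pr3 keep SOD1G86R replicate 1, which was far above its group in S1pr3. Correlations without these mice were not computed. The closest to Sgpp2 were the potassium channel gene Kcng4 (0.979 and 0.951), Rap2a (0.979 and 0.952) and Gid4 (0.979 and 0.959).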

How the data were processed

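Lumbar spinal cords of 5 WT and 5 SOD1G86R mice were sequenced in 10 libraries. According to the methods and the submitters' processing notes, the authors aligned to mm10 (TopHat2 2.0.14), counted reads by gene (HTSeq 0.6.1, Ensembl annotation) and compared genotypes with DESeq2. The deposited values are raw counts per gene, without normalization. The sources used here give neither the kit nor the strand setting, and the labels do not say what the replicate numbers mark.

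Counts were analysed with R 4.3.3. The main test was the robust quasi-likelihood F test of edgeR 4.0.16 on the 16974 genes kept by filterByExpr, with TMM factors, Benjamini-Hochberg adjustment over all of them and a limit of 0.01. DESeq2 1.42.0, limma 3.58.1 voom, other scalings, filters and each mouse left out were alternatives. Scripts were tested on simulated data. Log2(CPM + 0.1) of single genes was tested by exact permutation. Positions and exon lengths are from GENCODE M21 (GRCm38). Library totals of 29333590 to 46003999 gave 102 to 5053 counts per member and library, with the fewest for Sphk1, S1pr2 and S1pr3.

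The members and gene lists were chosen with earlier results of these data known. Named are the 10 members, other pathway genes past 0.01, the 3 with the smallest p in each of 4 sublists, genes near S1pr1 past 0.01 and the 3 genes most like each of 4 members. Ccn1, S1pr4, Cers2, Cers6 and 4 genes beside Dpyd were added after their values were seen. Apom, Cd69 and Acer1 had too few counts for a test. Lipidomics and qPCR were not analysed here. A microglial marker is not reported here and was left out of the list's sum.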

Additional observations from a re-analysis of the deposited data

Results flagged for a closer look

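In 3 of 20 groups of 5 mice (10 genes in each genotype) the highest mouse was far from its group, its gap to the next being more than 0.71 of the whole range (Dixon's 95% limit). Chance flags about 1 in 20 groups. Sphk1 was 7.92 CPM in SOD1G86R replicate 5 and 3.60 to 4.16 CPM in the other SOD1G86R mice. Spns2 was 89.7 CPM in the same mouse and 69.7 to 71.8 CPM in the others. S1pr3 was 19.2 CPM in SOD1G86R replicate 1 and 9.05 to 11.0 CPM in the others. The causes were not tested.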

How the results depend on the processing

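Each member's fold change was computed in 20 alternatives. Of these 200 values 191 kept their direction and their side of the threshold, 6 (Sgpl1 and S1pr3) passed it by DESeq2, at an adjusted p under 0.05 or without SOD1G86R replicate 4, and 3 changed sign, all of Sphk2, whose log2 fold change ranged from -0.0104 to 0.0414 when 1 mouse was left out. The number of members called higher was 0 and became 2 by DESeq2, at an adjusted p under 0.05 and without SOD1G86R replicate 4, and ranged from 0 to 2 when 1 mouse was left out. The number of other pathway genes called higher was 1 and became 3 with no filter, 7 by DESeq2, 0 by limma voom, 2 without robust estimation and 8 at an adjusted p under 0.05, and ranged from 0 to 6 when 1 mouse was left out. Calls over all genes differed between fits too. The main fit called 0.866% higher, DESeq2 3.82% and the fit without SOD1G86R replicate 4 4.55%. At an adjusted p under 0.05 it was 3.85%, and limma voom called 69 of 16974 genes in either direction. Shares for the other fits are not given here. Members with an exact permutation p under 0.05 were 3 and became 5 without SOD1G86R replicate 4. With shares of counts in place of length-scaled levels, the difference in receptor share was 0.53 in place of 0.21 percentage points for S1pr2 and 2.92 in place of 1.95 for S1pr3. For S1pr1 the difference changed sign, from 0.82 percentage points with length-scaled levels to -0.17 with counts. Genes called lower near S1pr1 were 2 within 5 Mb and 0 within 2 Mb. The cause of these differences was not tested, apart from the smaller window.

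Deviations of same-numbered mice from their group means correlated with r from -0.37 to 0.26, over 0.1 in 1 of 5 pairs. Of the WT mice, 0 of 5 correlated best with their own number. With 5 pairs and differences of single mice such as SOD1G86R replicate 4, this check cannot decide whether the numbers pair mice. With the replicate number as a block, 0 members and 0 other pathway genes were called higher, and the edgeR adjusted p was 0.0318 for Sgpl1 and 0.116 for S1pr3. Counts per library were fewest for Sphk1 (102 to 298), S1pr2 (119 to 229) and S1pr3 (148 to 609). Whether this limited the precision of their fold changes was not tested.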
